A study of Capra hircus with 7 samples.

Results

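Heat shock proteins and chaperones were examined in goat (Capra hircus) mammary gland cells in which the level of cirRNA28250, a circular RNA, had been altered. The members are the genes whose RefSeq symbol begins with HSPA, HSPB, HSPD, HSPE, HSPH, HSP90 or DNAJ, or with CCT and a number, together with TCP1. This rule found 75 of the 17374 genes in the deposited table. They comprise 3 HSP90 genes, 9 HSP70 genes, 3 HSP110 genes, 6 small heat shock proteins, HSPD1 and HSPE1, the 9 subunit genes of the TRiC chaperonin, and 4 DNAJA, 11 DNAJB and 25 DNAJC genes. The remaining 3, HSPB11, HSPBP1 and HSPBAP1, share the prefix but are not small heat shock proteins.

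The cells came from the mammary gland of the Lanshan dairy goat and were grown in 3D culture, and virus was used to change cirRNA28250 in them. The knockdown group is cKDmix (2 libraries), and c3NC (2 libraries) is listed beside it as control. The overexpression group is cRNA28250 (2 libraries), and c5NC (1 library) is listed beside it as control. The deposited table gives values per gene, so the level of the circular RNA itself is not analysed here. The labels spell out neither the control names nor what "mix" stands for, and nothing says whether the replicates came from separate cultures or animals. The p-values therefore reflect the spread among these particular libraries, and that spread may be technical.

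Chaperones bind unfolded or partly folded proteins and help them reach or keep their shape. HSP70 proteins hold and release client segments in a cycle driven by ATP, J-domain proteins (the DNAJ genes) deliver clients and stimulate that cycle, and HSP110 proteins exchange the nucleotide. HSP90 proteins act later, on kinases, receptors and other clients. Small heat shock proteins hold unfolding proteins without using ATP, and the chaperonins HSPD1 with HSPE1 in mitochondria, and TRiC in the cytosol, fold proteins inside a closed chamber. Separate members serve the endoplasmic reticulum (ER), where secreted proteins fold.

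Levels are FPKM, fragments counted per transcript length and sequencing depth, so levels of different genes can be set side by side. Summed FPKM ran from 476096 to 642595 per library, and 10896 to 11870 genes reached 1 FPKM. The fibroblast gene DCN stood at 5251 to 8882 FPKM in every library, while no library exceeded 0.28 FPKM of the luminal epithelial genes EPCAM, KRT8 or KRT18. Of 6 milk protein genes looked for, 2 (CSN1S2 and CSN3) were in the table, and neither passed 0.18 FPKM. The others were not found there by symbol, so their levels are unknown. Of 7 luminal markers measured, ESR1 stood at 17.6 to 22.8 FPKM in all libraries and KRT19 reached 5.53 FPKM in c5NC, while the other 5 stayed below 1 FPKM. The cRNA28250 replicates lay farthest apart: over all genes their log2 difference had an SD of 0.508, with 0.273 in cKDmix and 0.259 in c3NC. In bulk samples such as these, fewer cells of a type and less RNA per cell cannot be told apart.

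Members held a small share of all transcripts, and that share was higher in both altered groups than in their controls. They took 0.811% and 0.884% of the summed FPKM in cKDmix, against 0.584% and 0.678% in c3NC, and 0.757% and 0.684% in cRNA28250, against 0.629% in c5NC. The order of the most abundant members also differed. HSP90B1, the HSP90 of the ER, was the highest member in both cKDmix libraries at 708 and 771 FPKM, whereas HSPB1, a small heat shock protein that protects actin filaments, was the highest in both c3NC libraries at 869 and 1023 FPKM. In cRNA28250, HSP90B1 led in replicate 1 (804 FPKM, with HSPB1 at 617) and HSPB1 led in replicate 2 (783 FPKM, with HSP90B1 at 551), and in c5NC HSPB1 led at 953 FPKM with HSP90B1 at 169. Most of the excess of the member share in cRNA28250 over c5NC lay in HSP90B1. The 0.684% of cRNA28250 replicate 2 was also close to the 0.678% of c3NC replicate 2. HSPA8, the constitutive HSP70 of the cytosol, was among the 3 highest members throughout, at 335 to 563 FPKM.

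Of the 75 members, 59 reached 1 FPKM in all 7 libraries and 69 passed the filter of 1 FPKM in at least 2 libraries. Those that did not pass were DNAJB3, DNAJB13, DNAJC6, DNAJC22, HSPA12A and HSPB3, none of which exceeded 0.46 FPKM. HSPA4L passed only through cKDmix and HSPB7 only through cRNA28250, so these genes had to differ between groups to be tested. Genes were tested on log2(FPKM + 1) with limma over all 12180 genes that passed, with Benjamini-Hochberg adjustment, and called at an adjusted p under 0.05. Fold changes on this scale understate the change of genes with low values.

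Setting cKDmix against c3NC addresses which transcripts differ when cirRNA28250 is knocked down. Among chaperones of the ER lumen, 6 of 8 were called higher in cKDmix, with HSP90B1 at 739 ± 44.8 FPKM in cKDmix and 237 ± 44.8 FPKM in c3NC (SD, n = 2 each). HSPB8, a small heat shock protein that works in autophagy with BAG3, had the largest log2 fold change of FPKM + 1 among the members called, rising to 51.9 ± 3.68 FPKM in cKDmix, against 6.38 ± 3.05 FPKM in c3NC. HSPB1 fell to 273 ± 27.7 FPKM in cKDmix, against 946 ± 109 FPKM in c3NC. All 3 HSP110 genes rose, HSPA4L after passing the filter through cKDmix alone, and none of the 9 TRiC genes was called. Over all tested genes 26.8% were called higher and 7.56% lower, and the grouping by compartment was made with the values known.

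Limma called 25 of the 69 tested members, or 36.2%, against 34.4% of all tested genes. Of these, 22 were higher in cKDmix (31.9% of the tested members, against 26.8% of all tested genes) and 3 were lower (4.35% against 7.56%). These shares are near the background, so the count says little that is particular to chaperones. The 4 libraries did not overlap for 41 members that were higher in cKDmix and 12 that were lower, against 55.2% and 22.8% of all tested genes. The median log2 fold change was 0.32 over the tested members and 0.30 over all tested genes. After quantile normalization, which moved the median of all genes to −0.02, 16 members were higher and 6 lower, and 19 of the 25 kept call and direction; the share of higher calls over all genes was 49.1% there and 78.0% in the unscaled values. With median-ratio scaling 14 were higher and 6 lower. The count also depended on single libraries: 4 members were called without c3NC replicate 1, 13 without c3NC replicate 2, and 0 without either cKDmix library (limma; 23 and 22 had an unadjusted p under 0.05 without cKDmix replicates 1 and 2). No member's call held through all 7 fits that left out 1 library; HSPB8, DNAJC10, DNAJC13 and HSPA13 held in 5 of the 7. Over these fits the log2 fold change ran from 2.47 to 3.34 for HSPB8 and from −1.90 to −1.67 for HSPB1.

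Markers of cell types moved between the same groups. The summed level of 10 fibroblast markers was 13827 and 13117 FPKM in cKDmix, against 21178 and 22441 FPKM in c3NC. Of these, COL1A1, COL1A2 and PDGFRB were called lower and THY1 higher (limma). CD14, a monocyte marker, had 45.7 and 44.0 FPKM in cKDmix, against 218 and 177 FPKM in c3NC (−2.11 ± 0.27, limma adjusted p = 0.00409). Of the 4 other immune markers, CD68 was called higher, with 19.4 and 19.3 FPKM in cKDmix, against 5.86 and 8.61 FPKM in c3NC, and PTPRC, the marker shared by white blood cells, did not pass 0.02 FPKM in any library. The part of these markers in the changes of the members was not tested.

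**Figure D1:**
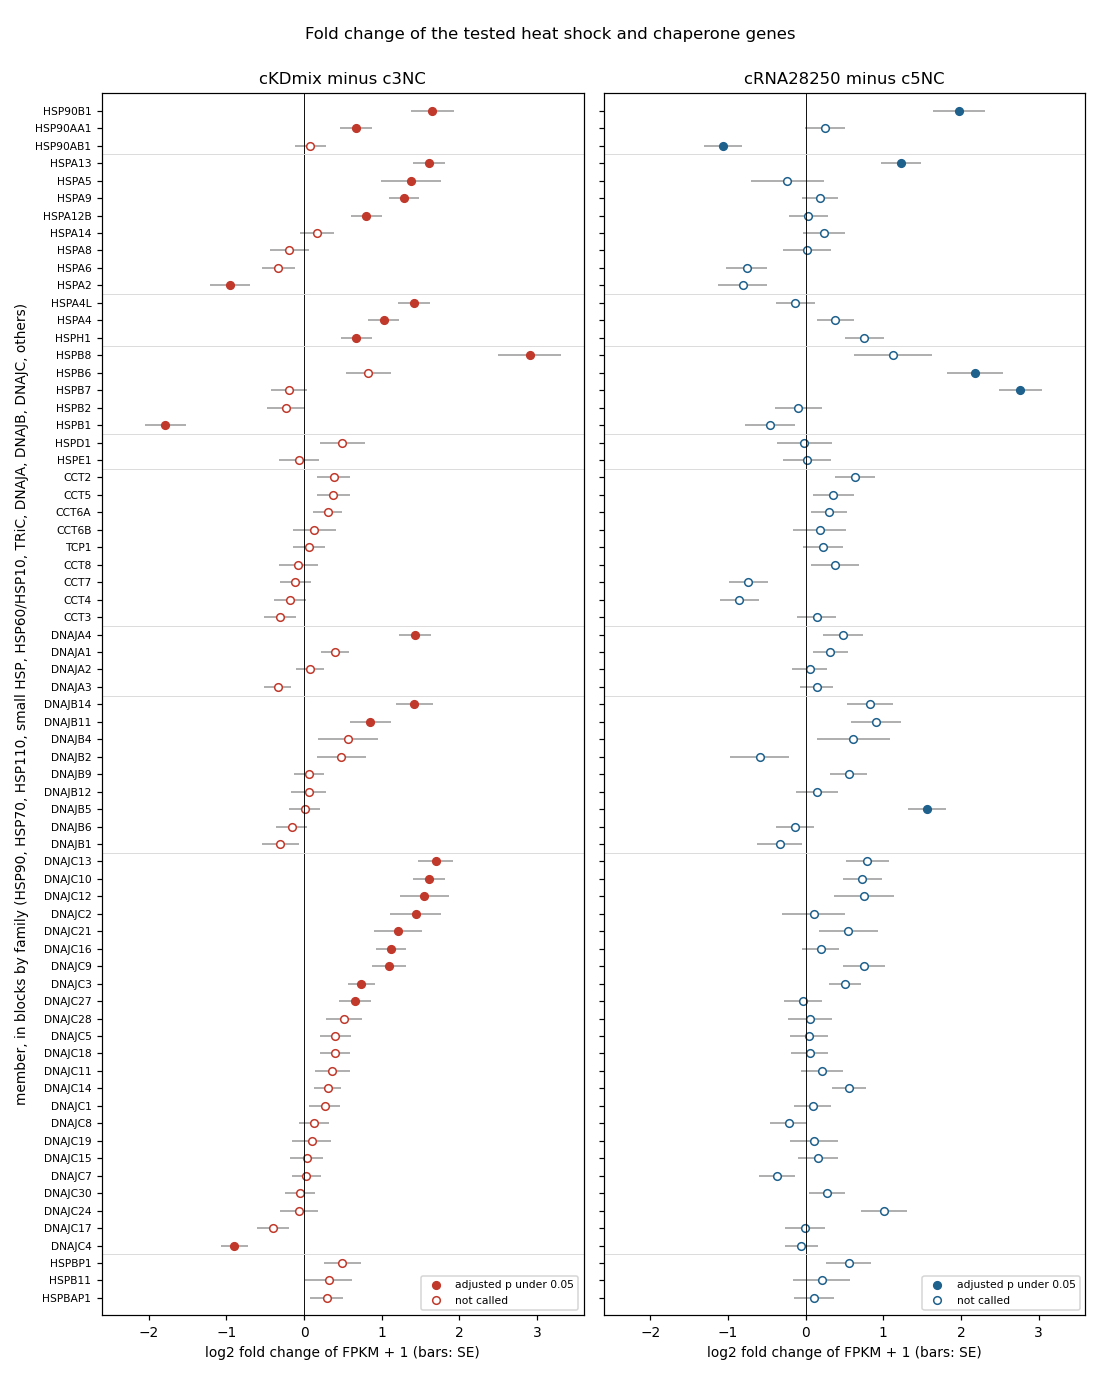
Log2 fold change of FPKM + 1 (x axis) with its SE (bars) for the 69 tested members (y axis, in blocks by family), for cKDmix minus c3NC on the left and cRNA28250 minus c5NC on the right; filled points passed an adjusted p under 0.05. On the left 25 members were called, from HSPB1 at −1.79 to HSPB8 at 2.91; on the right 6 were called, from HSP90AB1 at −1.06 to HSPB7 at 2.77.

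Among 8 members that work in the ER lumen, 6 were called higher in cKDmix and 0 lower (limma; also 6 at an unadjusted p under 0.05), against 26.8% and 7.56% of all tested genes. Their median log2 fold change was 1.11, against 0.30 for all tested genes, and their summed level was 1130 and 1208 FPKM in cKDmix, against 387 and 450 FPKM in c3NC. This grouping by compartment was made with the values known and is a description.

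HSP90B1, which folds integrins, Toll-like receptors and other secreted or membrane proteins, had 708 and 771 FPKM in cKDmix, against 205 and 268 FPKM in c3NC. The groups lay far apart, and the log2 fold change was 1.65 ± 0.28 (SE; limma adjusted p = 0.00709). HSPA5, the HSP70 of the ER lumen and a sensor of unfolded protein, had 250.4 and 275 FPKM in cKDmix, against 103 and 98.6 FPKM in c3NC. Its log2 fold change was 1.37 ± 0.39 (limma adjusted p = 0.0302), but c5NC stood between these groups at 187 FPKM, and against c5NC the change was 0.49 ± 0.47 (limma adjusted p = 0.474). HSPA13, an HSP70-like protein of microsomes, had 23.9 and 25.6 FPKM in cKDmix, against 6.26 and 8.80 FPKM in c3NC, a log2 fold change of 1.61 ± 0.21 (limma adjusted p = 0.00409).

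Of the 5 J-domain genes of the ER lumen, 3 were called higher. DNAJC10, which reduces disulfide bonds in proteins bound for degradation, had 55.9 and 55.2 FPKM in cKDmix, against 15.6 and 19.7 FPKM in c3NC. Every cKDmix value was above every value of the other 5 libraries, and the log2 fold change from c3NC was 1.61 ± 0.20 (limma adjusted p = 0.0038). DNAJB11, a cofactor of HSPA5 in folding, had 37.0 and 31.5 FPKM in cKDmix, against 21.1 and 16.1 FPKM in c3NC (log2 fold change 0.85 ± 0.26, limma adjusted p = 0.0398). DNAJC3, known also as an inhibitor of eIF2α kinases, had 32.65 and 31.5 FPKM in cKDmix, against 18.7 and 18.9 FPKM in c3NC (0.74 ± 0.17, limma adjusted p = 0.0155).

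The remaining ER genes were not called. DNAJB9, which represses the stress sensor IRE1, had 15.4 and 12.2 FPKM in cKDmix, against 12.9 and 13.2 FPKM in c3NC, and these values overlap. DNAJC1, a J-domain protein of the ER membrane, had 6.84 and 5.93 FPKM in cKDmix, against 4.66 and 5.65 FPKM in c3NC. Of the 6 called ER genes, DNAJB11 lost its call with quantile normalization (limma adjusted p up to 0.216 over all alternatives), and HSPA5, DNAJB11 and DNAJC3 lost theirs with median-ratio scaling.

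**Figure D2:**
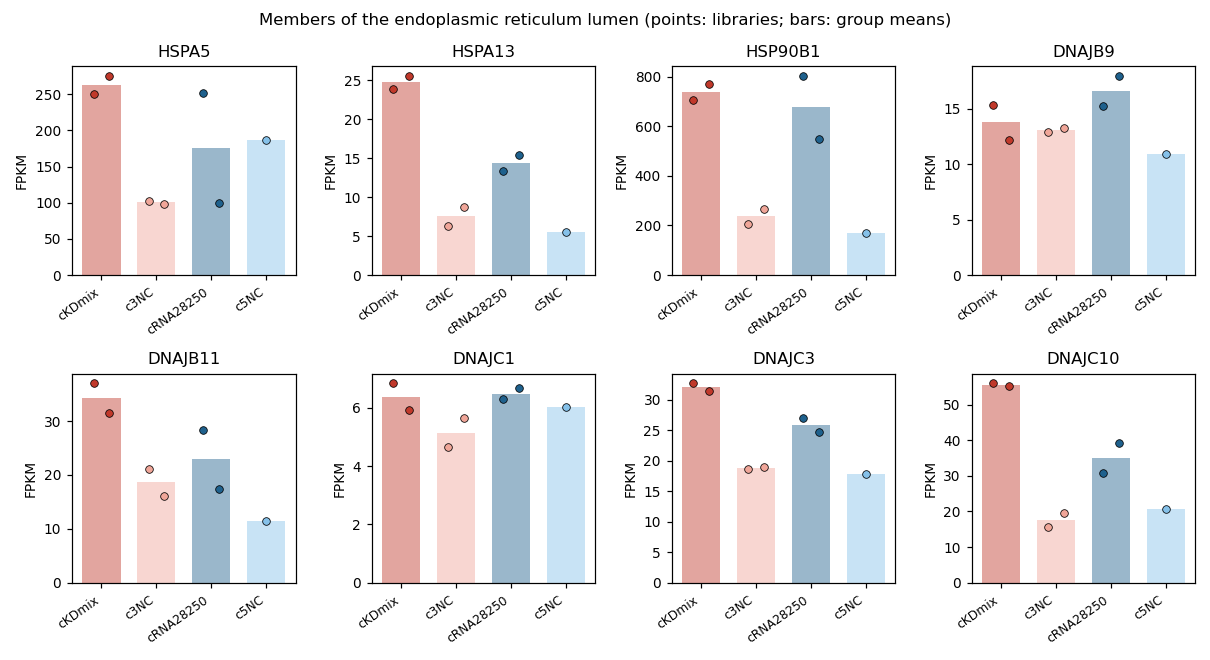
FPKM (y axis, linear, from 0) of 8 members of the ER lumen in the 4 groups (x axis); points are libraries and bars are group means. HSP90B1, HSPA13, DNAJC3 and DNAJC10 are above their control in both cKDmix and both cRNA28250 libraries, while HSPA5 splits the cRNA28250 replicates at 252 and 100.2 FPKM.

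Outside the ER, HSP70 and HSP110 genes moved in both directions. HSPA9, the HSP70 of the mitochondrial matrix that pulls in imported proteins, had 111 and 122 FPKM in cKDmix, against 48.4 and 45.9 FPKM in c3NC. Its log2 fold change was 1.28 ± 0.19 (limma adjusted p = 0.00549), and all 5 libraries outside cKDmix, at 45.9 to 70.3 FPKM, lay below both cKDmix values. HSPA8 did not move beyond its spread, with 446 and 458 FPKM in cKDmix, against 473 and 563 FPKM in c3NC (−0.19 ± 0.25, limma adjusted p = 0.582). HSPA2, an HSP70 best known from male germ cells, fell to 6.16 and 7.11 FPKM in cKDmix, against 10.6 and 17.9 FPKM in c3NC (−0.95 ± 0.26, limma adjusted p = 0.0273). That call was lost against c5NC, which had 11.8 FPKM (limma adjusted p = 0.122). HSPA12B, a distant relative of the family, averaged 2.45 FPKM in cKDmix and 0.985 FPKM in c3NC and rose by 0.80 ± 0.21 on the log2 scale, a call lost with both scalings.

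HSPA4, an HSP110 exchange factor, had 27.2 and 34.5 FPKM in cKDmix, against 13.6 and 15.6 FPKM in c3NC (1.02 ± 0.19, limma adjusted p = 0.0095). HSPA4L, its close relative, was nearly absent elsewhere: it had 1.99 and 2.36 FPKM in cKDmix, against 0.09 and 0.29 FPKM in c3NC, and 0.15 to 0.33 FPKM in the other libraries. HSPH1, the remaining HSP110 gene, had 19.1 and 23.9 FPKM in cKDmix, against 11.4 and 14.8 FPKM in c3NC (0.67 ± 0.20, limma adjusted p = 0.0379). The groups did not overlap for any of these genes, and 55.2% of all tested genes were higher in cKDmix without overlap. HSPH1 lost its call with quantile normalization and with median-ratio scaling, and HSPA4 with c5NC as the control.

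The cytosolic HSP90 genes differed from each other. HSP90AA1, the isoform that heat induces, had 330.02 and 318 FPKM in cKDmix, against 195 and 213 FPKM in c3NC. This was a log2 fold change of 0.67 ± 0.21 (limma adjusted p = 0.042), lost with median-ratio scaling and with c5NC as the control (limma adjusted p = 0.0507). HSP90AB1, the constitutive isoform, had 252 and 259 FPKM in cKDmix, against 229.6 and 254 FPKM in c3NC, and the groups overlapped (0.08 ± 0.20, limma adjusted p = 0.779).

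**Figure D3:**
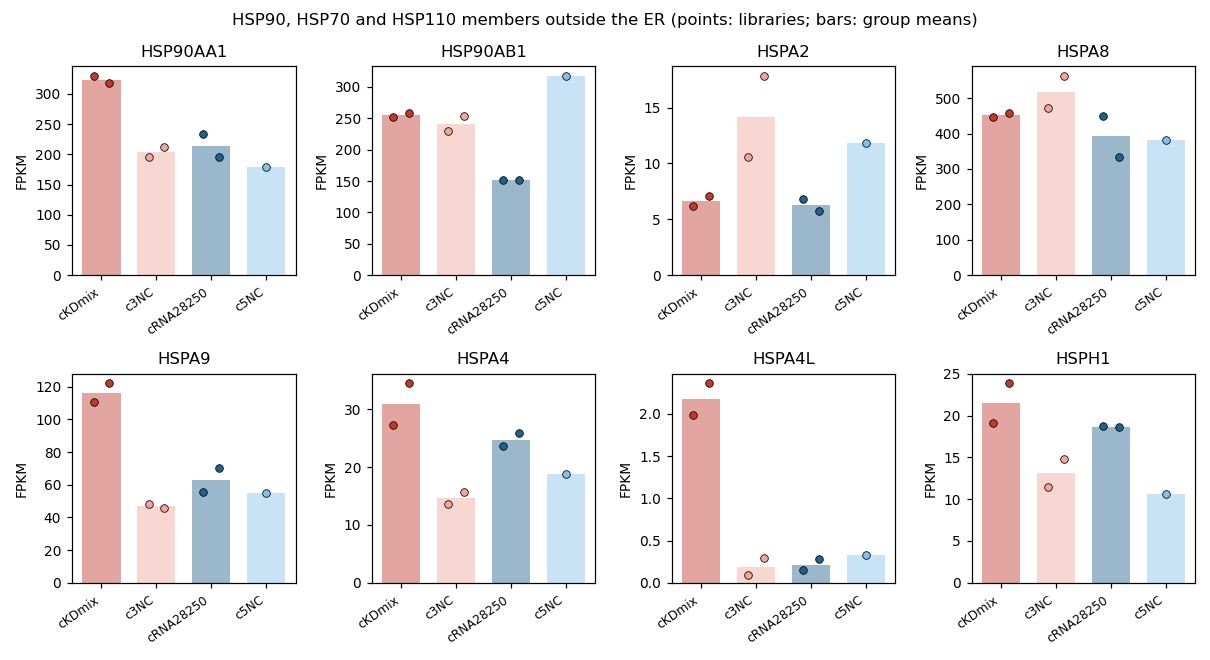
FPKM (y axis, linear, from 0) of HSP90, HSP70 and HSP110 members outside the ER in the 4 groups (x axis); points are libraries and bars are group means. HSPA9, HSPA4 and HSPA4L are highest in cKDmix, and HSP90AB1 is lowest in cRNA28250, at 152 FPKM in both libraries.

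Small heat shock proteins went separate ways in the knockdown. HSPB8 had 54.5 and 49.3 FPKM in cKDmix, against 4.22 and 8.54 FPKM in c3NC. Its groups were well apart, with a log2 fold change of 2.91 ± 0.41 (limma adjusted p = 0.00488). HSPB1 had 293 and 254 FPKM in cKDmix, against 869 and 1023 FPKM in c3NC, and 617 to 953 FPKM in the other 3 libraries. It fell by 1.79 on the log2 scale (SE 0.26, limma adjusted p = 0.00514) and stayed called with both scalings and against c5NC. CRYAB, the αB-crystallin also called HSPB5, is outside the members by its symbol and moved the same way, with 80.6 and 68.5 FPKM in cKDmix, against 239 and 439.8 FPKM in c3NC (−2.11 ± 0.32, limma adjusted p = 0.00544).

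HSPB6, a small heat shock protein of muscle, had 64.9 and 84.4 FPKM in cKDmix, against 35.1 and 48.4 FPKM in c3NC. These libraries did not overlap, but the adjusted p was 0.0609 (limma; 0.83 ± 0.29). HSPB2 stayed between 1.01 and 3.51 FPKM in all libraries. HSPB7, a muscle protein that binds filamin, had 0.24 and 0.28 FPKM in cKDmix, against 0.21 and 0.72 FPKM in c3NC, too low to read a difference.

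**Figure D4:**
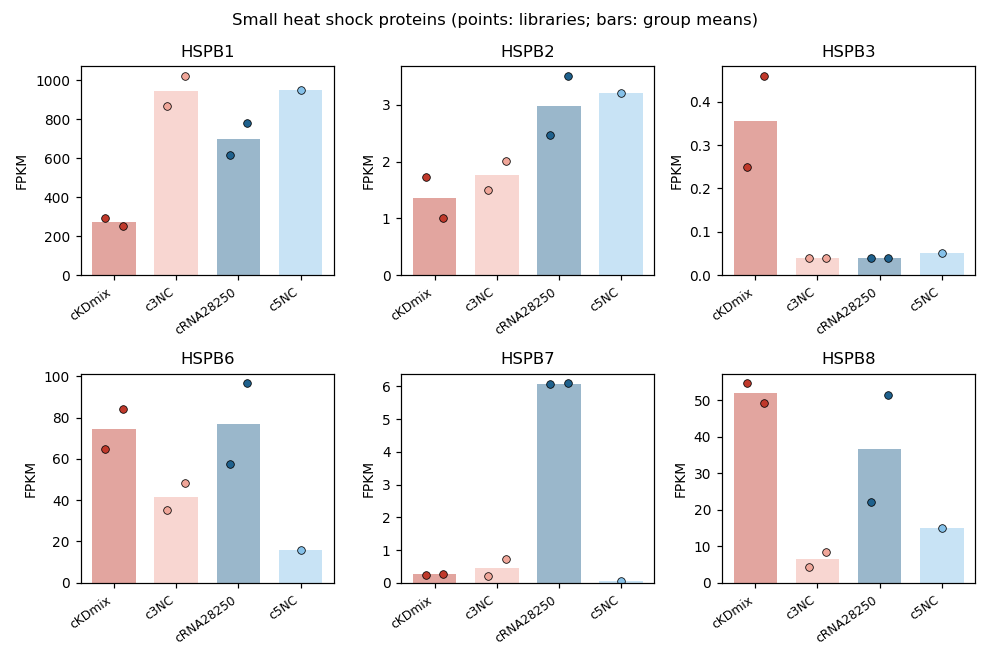
FPKM (y axis, linear, from 0, a separate scale for each gene) of 6 small heat shock proteins in the 4 groups (x axis); points are libraries and bars are group means. HSPB1 is lowest in cKDmix at 254 and 293 FPKM, HSPB8 is highest in cKDmix replicate 1 at 54.5 FPKM, and HSPB7 reaches 6.06 and 6.09 FPKM in cRNA28250 alone.

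J-domain genes gave 12 of the 22 members higher in cKDmix. In the DNAJC group, 9 of 23 tested genes were higher and 1 lower; in DNAJB, 2 of 9 were higher; and in DNAJA, 1 of 4. Over all tested genes 26.8% were higher and 7.56% lower. The medians of the log2 fold change in these groups were 0.39, 0.06 and 0.24. DNAJC13, which works in endosomal traffic with clathrin and retromer, had 18.9 and 23.3 FPKM in cKDmix, against 5.20 and 6.40 FPKM in c3NC. Its log2 fold change of 1.70 ± 0.23 (limma adjusted p = 0.00441) was the largest of any J-domain gene called. DNAJA4, a partner of cytosolic HSP70, had 7.96 and 7.61 FPKM in cKDmix, against 2.16 and 2.36 FPKM in c3NC (1.43 ± 0.21, limma adjusted p = 0.00514).

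DNAJB14, an ER membrane J-domain protein facing the cytosol, had 9.06 and 10.6 FPKM in cKDmix, against 2.89 and 3.17 FPKM in c3NC (1.42 ± 0.24, limma adjusted p = 0.00748). DNAJC2 and DNAJC21 are tied to the ribosome, DNAJC2 on translating ribosomes and DNAJC21 in maturation of the large subunit. DNAJC2 had 19.2 and 16.0 FPKM in cKDmix, against 4.31 and 7.81 FPKM in c3NC (1.44 ± 0.33, limma adjusted p = 0.0161). DNAJC21 had 63.7 and 60.6 FPKM in cKDmix, against 21.1 and 32.6 FPKM in c3NC (1.21 ± 0.31, limma adjusted p = 0.0231). Both calls were lost against c5NC, which had 10.1 and 35.8 FPKM of these genes (limma adjusted p = 0.214 and 0.169).

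DNAJC16 had 5.98 and 6.88 FPKM in cKDmix, against 2.52 and 2.29 FPKM in c3NC (1.12 ± 0.19, limma adjusted p = 0.00755), and lost its call with quantile normalization. DNAJC9, a histone chaperone, DNAJC12, a partner of aromatic amino acid hydroxylases, and DNAJC27, a small GTPase with a J-domain, were also called higher, at log2 fold changes of 1.10, 1.55 and 0.65. Their highest value in any library was 4.70 FPKM. With quantile normalization DNAJC9 and DNAJC27 were no longer called, and against c5NC DNAJC12 and DNAJC27 were not. DNAJC27 also lost its call with median-ratio scaling and when the control libraries were pooled. DNAJC4 was the J-domain gene that fell, to 11.1 and 10.8 FPKM in cKDmix, against 22.1 and 20.4 FPKM in c3NC (−0.90 ± 0.17, limma adjusted p = 0.00957). In the other 3 libraries DNAJC4 stood at 18.02 to 19.4 FPKM, also above cKDmix.

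The J-domain genes most tied to heat shock in textbooks were not called. DNAJB1, the inducible partner of HSP70, had 19.01 and 17.8 FPKM in cKDmix, against 25.1 and 21.0 FPKM in c3NC (−0.30 ± 0.23, limma adjusted p = 0.34). DNAJA1 had 67.1 and 61.5 FPKM in cKDmix, against 51.1 and 45.97 FPKM in c3NC (0.40 ± 0.18, limma adjusted p = 0.123). The gene that RefSeq lists as HSP70.1, with hspA1A as a synonym, is not a member by its symbol; it is the stress-inducible HSP70. It had 3.27 and 3.06 FPKM in cKDmix, against 9.06 and 8.82 FPKM in c3NC (−1.26 ± 0.18, limma adjusted p = 0.00514). HSP70.1 has close copies, and how the authors assigned shared reads is not given in the sources used here, so its values are uncertain, as are those of HSPA6 (0.79 to 2.35 FPKM). The same limit holds for HSPA8, HSPD1, HSPE1 and HSP90AB1, which have many processed copies in mammalian genomes.

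The chaperonins changed little in cKDmix. HSPD1, the mitochondrial chaperonin, had 99.2 and 97.7 FPKM in cKDmix, against 56.5 and 86.0 FPKM in c3NC (0.49 ± 0.29, limma adjusted p = 0.219). HSPE1, its lid, had 124 and 99.0 FPKM in cKDmix, against 114 and 118 FPKM in c3NC, with overlapping groups (−0.07 ± 0.26, limma adjusted p = 0.859). In TRiC, which folds actin and tubulin, 0 of 9 genes were called in limma, against 34.4% of all tested genes. None had an unadjusted p under 0.05, and the log2 fold changes ran from −0.31 (CCT3) to 0.38 (CCT2). With median-ratio scaling CCT3 was called lower. CCT2 had 73.6 and 66.8 FPKM in cKDmix, against 49.9 and 57.6 FPKM in c3NC, and TCP1 had 135 and 112 FPKM in cKDmix, against 122 and 114 FPKM in c3NC. CCT6B, a form typical of testis, stayed at or below 2.44 FPKM in every library.

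**Figure D5:**
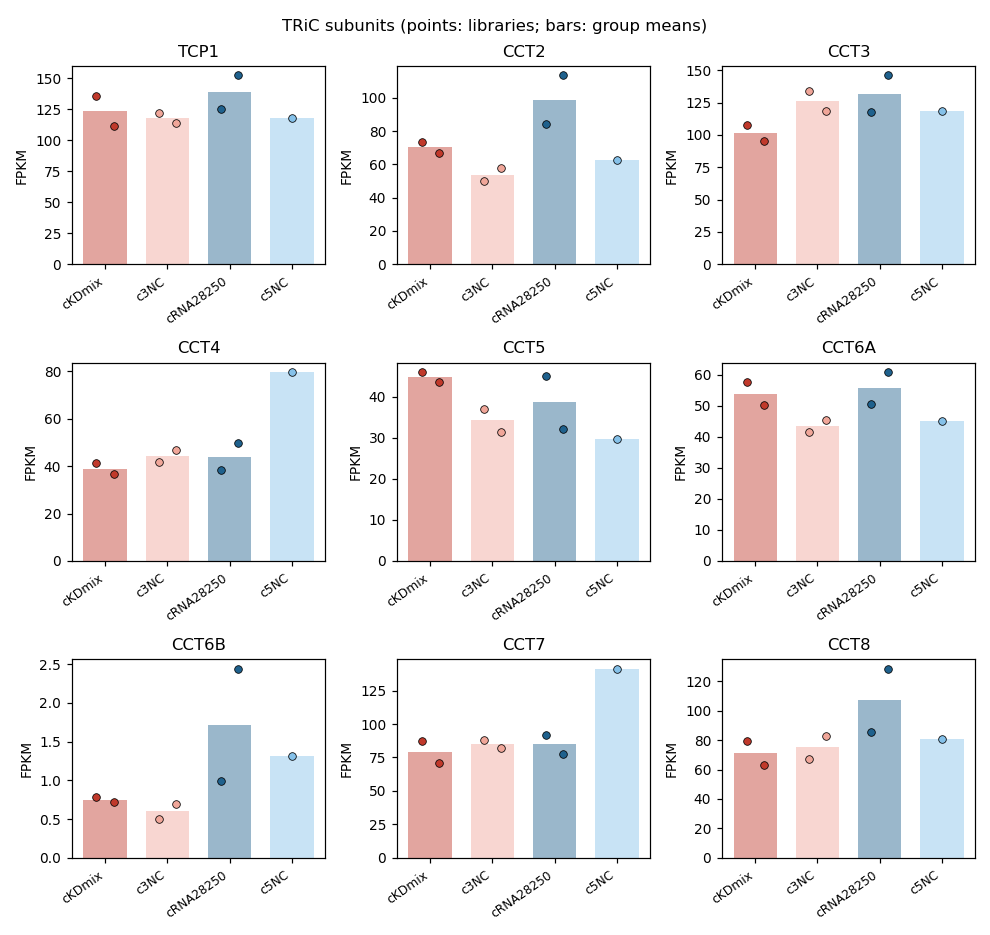
FPKM (y axis, linear, from 0, a separate scale for each gene) of the 9 TRiC genes in the 4 groups (x axis); points are libraries and bars are group means. CCT4 and CCT7 are highest in c5NC, at 79.7 and 141 FPKM. None of the 9 genes was called in either comparison. Over all tested genes 34.4% were called in cKDmix minus c3NC and 7.62% in cRNA28250 minus c5NC.

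Setting cRNA28250 against c5NC addresses which transcripts differ when cirRNA28250 is overexpressed, and rests on 1 control library. The 6 members called were the small heat shock proteins HSPB7 and HSPB6, the ER members HSP90B1 and HSPA13, DNAJB5 and HSP90AB1. HSPB7 stood at 6.08 ± 0.0212 FPKM in cRNA28250 (SD, n = 2) and at 0.04 FPKM in c5NC. HSP90B1 averaged 677 ± 179 FPKM in cRNA28250, with 169 FPKM in c5NC. HSP90AB1 fell to 152 ± 0.127 FPKM in cRNA28250, against 318 FPKM in c5NC.

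Limma called 6 of the 69 tested members (8.7%, against 7.62% of all tested genes), and 21 had an unadjusted p under 0.05. Of the 6, 5 were higher in cRNA28250, against 5.07% of all tested genes, and 1 was lower, against 2.55%. The libraries did not overlap for 34 members that were higher and 12 that were lower, against 46.1% and 25.3% of all tested genes. The median log2 fold change was 0.19 over the tested members and 0.16 over all tested genes. With c3NC as the control HSPB7 and HSP90B1 stayed called and the other called members did not. HSPB8, DNAJC10, DNAJC13 and DNAJC15 were called higher with that control. Without cRNA28250 replicate 1 the count was 17, without replicate 2 it was 10, and without either cKDmix library it was 2, since the spread is pooled over the groups. With only the 3 libraries compared it was also 2 (HSPB6 and HSPB7).

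HSPB7 had 6.06 and 6.09 FPKM in cRNA28250, against 0.04 FPKM in c5NC. It passed the filter through cRNA28250 alone and had to differ between groups to be tested, so its p-values are no independent support. No other library passed 0.72 FPKM, and the log2 fold change was 2.77 ± 0.28 (limma adjusted p = 0.00216; 2.29 ± 0.23 with c3NC as the control, limma adjusted p = 0.00261). HSPB6 had 57.6 and 96.6 FPKM in cRNA28250, against 15.7 FPKM in c5NC (2.18 ± 0.36, limma adjusted p = 0.0127). Here c5NC was the lowest of the 7 libraries, and with c3NC as the control the call was lost (0.84 ± 0.29, limma adjusted p = 0.148). The summed level of 7 basal and myoepithelial markers, led by TAGLN and ACTA2, was also low in c5NC, at 1435 and 1414 FPKM in cRNA28250, 244 FPKM in c5NC, and 1529 to 2060 FPKM in the other libraries. In c5NC most of that sum was TAGLN (162 FPKM) and ACTA2 (63.5 FPKM). The keratins of the same list went the other way, with KRT5 (0.53 FPKM) and KRT14 (4.22 FPKM) highest in c5NC. TP63, also of this list, did not pass 0.05 FPKM in any library. The luminal marker KRT19 (5.53 FPKM) was highest in c5NC too. The part of these markers in the result for HSPB6 was not tested.

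HSPB8 had 22.2 and 51.3 FPKM in cRNA28250, against 14.9 FPKM in c5NC, and was not called (1.13 ± 0.50, limma adjusted p = 0.23). Its replicates lay apart, and it was called without replicate 1 (1.71 ± 0.36, limma adjusted p = 0.00858) and with c3NC as the control (2.30 ± 0.41, limma adjusted p = 0.0251). HSPB1 had 617 and 783 FPKM in cRNA28250, against 953 FPKM in c5NC (−0.45 ± 0.32, limma adjusted p = 0.447).

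HSP90B1 had 804 and 551 FPKM in cRNA28250, against 169 FPKM in c5NC, a log2 fold change of 1.97 ± 0.34 (limma adjusted p = 0.0149). Both values exceeded all 3 control libraries, and the call held with c3NC as the control (1.5 ± 0.28, limma adjusted p = 0.0286). HSPA13 had 13.4 and 15.4 FPKM in cRNA28250, against 5.56 FPKM in c5NC (1.23 ± 0.26, limma adjusted p = 0.0304; 0.182 at most over the alternatives, quantile normalization among those that ended the call). HSPA5 went against this pattern: its cRNA28250 replicates had 252 and 100.2 FPKM, on either side of c5NC at 187 FPKM (−0.24 ± 0.47, limma adjusted p = 0.808). Without cRNA28250 replicate 1 HSPA5 was called lower (−0.90 ± 0.23, limma adjusted p = 0.0226), and without replicate 2 the value was 0.42 ± 0.24 (limma adjusted p = 0.268).

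The other ER genes were not called in cRNA28250 against c5NC, though DNAJC10 was called higher with c3NC as the control. DNAJC10 had 30.9 and 39.2 FPKM in cRNA28250, against 20.6 FPKM in c5NC, and DNAJC3 had 26.9 and 24.8 FPKM in cRNA28250, against 17.8 FPKM in c5NC. DNAJB11 had 28.4 and 17.5 FPKM in cRNA28250, against 11.4 FPKM in c5NC. DNAJB9 had 15.2 and 17.95 FPKM in cRNA28250, against 10.9 FPKM in c5NC. For these 4 genes the groups did not overlap, and the limma adjusted p ran from 0.132 (DNAJC10) to 0.214 (DNAJB9). Against the lone c5NC library, 46.1% of all tested genes were higher without overlap. DNAJC1 had 6.32 and 6.67 FPKM in cRNA28250, against 6.02 FPKM in c5NC (limma adjusted p = 0.854).

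HSP90AB1 had 152 FPKM in both cRNA28250 libraries, against 318 FPKM in c5NC. It was lower there than in the other 5 libraries, which had 229.6 to 318 FPKM, with a log2 fold change of −1.06 ± 0.24 (limma adjusted p = 0.0409). The call was lost with quantile normalization and with c3NC as the control (−0.67 ± 0.20, limma adjusted p = 0.108). HSP90AA1 had 233 and 196 FPKM in cRNA28250, against 179 FPKM in c5NC (0.25 ± 0.26, limma adjusted p = 0.605). HSP70.1 had 1.71 and 1.69 FPKM in cRNA28250, against 8.51 FPKM in c5NC (−1.82 ± 0.22, limma adjusted p = 0.00449).

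DNAJB5, a J-domain protein known in heart muscle, had 4.90 and 4.88 FPKM in cRNA28250, against 0.99 FPKM in c5NC (1.57 ± 0.25, limma adjusted p = 0.0111). The other libraries, at 3.39 to 4.22 FPKM, were close to cRNA28250 rather than to c5NC. With c3NC as the control DNAJB5 was not called. DNAJB5 was also the 1 member called between the controls (c3NC minus c5NC, 1.26 ± 0.25, limma adjusted p = 0.0282), where 8 members had an unadjusted p under 0.05. Over all tested genes 5.8% were called there, 2.73% higher in c3NC and 3.07% lower. The c3NC libraries did not overlap with c5NC for 23 members that were higher in c3NC and 37 that were lower, against 36.1% and 45.1% of all tested genes.

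The remaining textbook members showed no called change in cRNA28250. HSPA8 had 451 and 335 FPKM in cRNA28250, against 383 FPKM in c5NC. HSPA9 had 55.8 and 70.3 FPKM in cRNA28250, against 54.95 FPKM in c5NC. HSPH1 had 18.8 and 18.6 FPKM in cRNA28250, against 10.7 FPKM in c5NC. These gave log2 fold changes of 0.02 ± 0.31, 0.19 ± 0.24 and 0.75 ± 0.25. HSPD1 had 91.05 and 147 FPKM in cRNA28250, against 117 FPKM in c5NC, and HSPE1 had 136 and 210.4 FPKM in cRNA28250, against 167 FPKM in c5NC. For both mitochondrial genes the replicates lay on either side of the control. DNAJA1 had 63.5 and 73.1 FPKM in cRNA28250, against 54.4 FPKM in c5NC. DNAJB1 had 22.5 and 14.5 FPKM in cRNA28250, against 23.1 FPKM in c5NC. Neither was called (limma adjusted p = 0.444 and 0.537).

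In TRiC, limma called 0 of 9 genes, against 7.62% of all tested genes, and 3 had an unadjusted p under 0.05. CCT2 had 84.3 and 114 FPKM in cRNA28250, against 62.5 FPKM in c5NC. TCP1 had 125 and 152 FPKM in cRNA28250, against 118 FPKM in c5NC. CCT4 had 38.2 and 49.8 FPKM in cRNA28250, against 79.7 FPKM in c5NC, and CCT7 had 91.7 and 77.7 FPKM in cRNA28250, against 141 FPKM in c5NC. These subunits of 1 complex thus sat on opposite sides of the control, with log2 fold changes from −0.85 ± 0.25 (CCT4, limma adjusted p = 0.0843) to 0.64 ± 0.26 (CCT2, limma adjusted p = 0.192). CCT4 was called lower with median-ratio scaling. Both CCT4 and CCT7 were picked with their values in view, and were also higher in c5NC than in c3NC and cKDmix, where CCT4 reached 46.9 FPKM and CCT7 87.7 FPKM.

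Replicates differed in these genes as they did in the whole table. Among members averaging at least 5 FPKM, the replicates differed by more than 1.5-fold for 13 of 55 in cRNA28250, 1 of 57 in cKDmix and 5 of 53 in c3NC. HSPA5 had the largest ratio in cRNA28250, at 2.51, and HSPB8 in c3NC, at 2.02.

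Of the 69 tested members, 40 were called in neither comparison. The matching share of all tested genes was not counted, so this number says nothing particular to chaperones. Over all tested genes 34.4% were called in knockdown and 7.62% in overexpression. The uncalled members named here were picked with their values in view. DNAJB4, a partner of cytosolic HSP70, had 73.4 and 67.02 FPKM in cKDmix, against 38.5 and 57.6 FPKM in c3NC, and 34.4 and 81.3 FPKM in cRNA28250, against 34.3 FPKM in c5NC. Its cRNA28250 replicates spanned nearly the whole range of the 7 libraries. DNAJC8, a splicing factor with a J-domain, stayed between 43.6 and 61.2 FPKM over all libraries, and DNAJA2 between 44.3 and 53.45 FPKM. DNAJC15, of the mitochondrial inner membrane, had 35.95 and 46.6 FPKM in cRNA28250, against 36.6 FPKM in c5NC, and 17.98 to 23.1 FPKM in the cKDmix and c3NC libraries.

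The lower J-domain genes that were not called held 9.91 to 16.1 FPKM of DNAJC24 outside c5NC and 6.45 FPKM in it, a log2 fold change of 1.01 in cRNA28250 (limma adjusted p = 0.0905). DNAJC24 takes part in making diphthamide on elongation factor 2. DNAJA3, of mitochondria, had 13.0 and 11.5 FPKM in cKDmix, against 16.3 and 15.2 FPKM in c3NC, and DNAJC17, a nuclear protein, had 6.0 and 5.43 FPKM in cKDmix, against 7.95 and 7.80 FPKM in c3NC. Neither was called in the unscaled values (limma adjusted p = 0.167 and 0.162), and both were called lower with quantile normalization and with median-ratio scaling. HSPA14, the ribosome-bound HSP70, had 22.7 and 20.9 FPKM in cKDmix, against 19.7 and 18.95 FPKM in c3NC, and 22.8 and 33.9 FPKM in cRNA28250, against 23.4 FPKM in c5NC (limma adjusted p = 0.581 and 0.651). The 3 genes that share the prefix alone, HSPB11, HSPBP1 and HSPBAP1, were called in neither comparison (limma). Over the 7 libraries HSPB11 ran from 5.02 to 14.6 FPKM, HSPBP1 from 3.97 to 9.17 FPKM and HSPBAP1 from 3.90 to 5.71 FPKM.

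HSP90B1 and HSPA13 were called in both comparisons and rose in both, which is 8.0% of the 25 knockdown calls and 33.3% of the 6 overexpression calls. Over all tested genes 34.4% were called in knockdown, so this overlap is near the background. The comparisons use different control libraries. The difference between the effects was tested directly, as the knockdown effect less the overexpression effect. Of 69 members, 3 were called, or 4.35%, against 7.7% of all tested genes, and 17 had an unadjusted p under 0.05. Over all tested genes 4.01% had a higher and 3.69% a lower effect in knockdown than in overexpression, against 1 and 2 members. HSPB7 (−2.96 ± 0.36, limma adjusted p = 0.00469) and DNAJB5 (−1.56 ± 0.32, limma adjusted p = 0.0278) had the higher effect in overexpression. HSPA4L (1.55 ± 0.32, limma adjusted p = 0.0303) had the higher effect in knockdown. HSPB7 passed the filter only through cRNA28250 and HSPA4L only through cKDmix. Both had to differ between groups to be tested, so their p-values are no independent support. For HSP90B1 the difference was −0.32 ± 0.44 (limma adjusted p = 0.663). For HSPB1 it was −1.33 ± 0.41 (limma adjusted p = 0.0944), so the fall in knockdown was not shown to be particular to it. Without cRNA28250 replicate 2 the count was 18, without replicate 1 it was 10, without either c3NC library it was 1, and without either cKDmix library 0 (limma; 10 and 7 at an unadjusted p under 0.05).

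Regulators and helpers of the chaperones were measured as lists of their own. Over all tested genes, 26.8% were called higher and 7.56% lower in cKDmix, and 5.07% higher and 2.55% lower in cRNA28250. HSF1, the master factor of the heat shock response, had 21.4 and 23.1 FPKM in cKDmix, against 24.7 and 25.3 FPKM in c3NC, and 19.3 and 21.3 FPKM in cRNA28250, against 22.5 FPKM in c5NC. HSF1 was picked with its values in view, and it was called in neither comparison (limma adjusted p = 0.48 and 0.723). Of 36 tested heat shock factors and co-chaperones, 5 were higher and 2 lower in cKDmix, with a median of 0.08 against 0.30 for all genes. The lowest p belonged to CRYAB, CHORDC1, HSF4 and BAG4. CHORDC1, an HSP90 co-chaperone, had 14.8 and 14.01 FPKM in cKDmix, against 5.15 and 6.17 FPKM in c3NC. BAG4, an HSP70 exchange factor, had 9.74 and 11.1 FPKM in cKDmix, against 4.69 and 4.84 FPKM in c3NC. HSF4, a factor of lens, had 1.84 and 1.5 FPKM in cKDmix and was listed at 0 and 0.18 FPKM in c3NC. In cRNA28250, 0 of the 36 were called (limma; 6 at an unadjusted p under 0.05).

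Prefoldin hands unfolded actin and tubulin to TRiC. Of 11 prefoldin subunits and TRiC cofactors, 2 were higher and 2 lower in cKDmix, against 26.8% and 7.56% of all tested genes. Their median was 0.00, against 0.30 for all genes. UXT (−1.37 ± 0.26) and PFDN5 (−1.02 ± 0.33) fell, and PDRG1 (1.11 ± 0.22) and URI1 (0.92 ± 0.22) rose. In cRNA28250, limma called 0 of the 11, against 7.62% of all tested genes, and 0 had an unadjusted p under 0.05.

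Genes of the unfolded protein response, the signalling that induces ER chaperones, were measured beside the ER members. Of 21 tested, 6 were higher and 2 lower in cKDmix, against 26.8% and 7.56% of all tested genes, with a median of 0.07 against 0.30. CANX, a lectin chaperone of the ER, had 132 and 168 FPKM in cKDmix, against 61.96 and 52.9 FPKM in c3NC (1.37 ± 0.26, limma adjusted p = 0.00958). EIF2AK3 (1.01 ± 0.21) and ATF6 (1.17 ± 0.25), both sensors of ER stress, also rose. The gene of the sensor IRE1, ERN1, was not called (0.19 ± 0.20, limma adjusted p = 0.482), nor was XBP1 (limma adjusted p = 0.982). CALR (1.65 ± 0.37), MANF (1.14 ± 0.27) and DDIT3 (1.47 ± 0.46, limma adjusted p = 0.0426) were the remaining genes called higher. PPP1R15A, which restores translation after stress, fell by 1.85 on the log2 scale. ATF3 was also called lower (−2.25 ± 0.71, limma adjusted p = 0.0421). In cRNA28250, 2 of the 21 were higher and 1 lower, against 5.07% and 2.55% of all tested genes. SDF2L1, an ER lumen protein, had 44.02 and 51.6 FPKM in cRNA28250, against 9.89 FPKM in c5NC (2.16 ± 0.29, limma adjusted p = 0.006). CRELD2, also of the ER lumen, had 28.8 and 11.4 FPKM in cRNA28250, against 1.85 FPKM in c5NC. Here too c5NC was the lowest of the 7 libraries for both genes. PPP1R15A was the gene called lower, with 45.55 and 20.1 FPKM in cRNA28250, against 123 FPKM in c5NC (−1.98 ± 0.42, limma adjusted p = 0.0327). For PPP1R15A c5NC was the highest of the 7 libraries.

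Immediate early genes, which respond to stress and growth factors, had negative median changes in both comparisons. Some of them split the cRNA28250 replicates 1 and 2, such as FOS at 300 and 5.15 FPKM and EGR1 at 155 and 8.59 FPKM. Others did not, such as FOSL1 at 18.7 and 17.3 FPKM. Of 23 tested, 12 were lower and 1 higher in cKDmix (median −0.97 against 0.30 for all genes), and 9 were lower and 0 higher in cRNA28250 (median −1.71 against 0.16). Over all tested genes 7.56% were lower and 26.8% higher in cKDmix, and 2.55% were lower and 5.07% higher in cRNA28250. The controls also differed in these genes, with a median of −0.86 for c3NC minus c5NC, against −0.05 for all genes. Of the 23, 4 were lower and 1 higher in c3NC than in c5NC, against 3.07% and 2.73% of all tested genes. The comparison of cRNA28250 with c5NC therefore includes the high level of the lone c5NC library. ZFP36, which promotes mRNA decay, had 32.4 and 34.4 FPKM in cKDmix, against 108 and 140 FPKM in c3NC. It had 107 and 46.99 FPKM in cRNA28250, against 480 FPKM in c5NC. The part of this difference in the levels of HSP70.1 or of the members was not tested.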

How the data were processed

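RNA-seq libraries of 7 samples were used. The authors deposited 1 table of FPKM values, per the file headers, rounded to hundredths; the sources used here give no aligner, gene model, build, strandedness or pooling. Since FPKM is a normalized unit, a count model was not fitted. Low values did not resolve into whole reads, so the depth per library is unknown. Identifiers were matched to RefSeq symbols of assembly ARS1.2, used for names alone: 17007 matched and 367 did not. Another 6 RefSeq members (CCT8L2, DNAJB7, DNAJB8, DNAJC5B, DNAJC5G and HSPB9) are not analysed here. Groups came from the sample titles.

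Values were tested as log2(FPKM + 1) with R 4.3.3 and limma 3.58.1, fitting the 4 group means over all 7 libraries, 3 residual and 4.66 prior degrees of freedom, a variance trend, and Benjamini-Hochberg adjustment over 12180 genes. For c5NC, with 1 library, the spread is taken from the other groups. The members and lists were chosen with earlier results of these data known. Genes given with values of every library are, per comparison and direction, up to 12 called members that do not overlap and average at least 5 FPKM in the higher group; textbook members; up to 6 called for the difference; and up to 4 called genes per pathway list. Any other gene given with values of every library (such as DNAJB4, DNAJC1, DNAJC15, DNAJA3, DNAJC17 and HSPA14) was chosen after seeing values. Alternatives were a pseudocount of 0.1, other filters, quantile and median-ratio scaling, no trend, fewer libraries, a replicate block and pooled controls; swapped controls were added after seeing the data. Figures used matplotlib 3.10.9.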

Additional observations from a re-analysis of the deposited data

Results flagged for a closer look

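The effects of knockdown and overexpression differed by the test of the difference itself (limma, adjusted p under 0.05) for 3 members. HSPB7 and HSPA4L reached 1 FPKM in 1 group only, cRNA28250 for HSPB7 and cKDmix for HSPA4L, so they had to differ between groups to be tested at all. HSPB7 had a difference of −2.96 on the log2 scale (knockdown effect less overexpression effect): it had 6.06 and 6.09 FPKM in cRNA28250 and at most 0.72 FPKM elsewhere. DNAJB5 had a difference of −1.56, with c5NC alone at 0.99 FPKM and the other libraries at 3.39 to 4.90 FPKM. HSPA4L had a difference of 1.55, with 1.99 and 2.36 FPKM in cKDmix and at most 0.33 FPKM elsewhere.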

How the results depend on the processing

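Of the counts of called members, those of cKDmix minus c3NC stayed between 20 and 30 (25 in the values as reported) under the alternatives other than leaving out a library, and from 0 to 30 when 1 library was left out. For cRNA28250 minus c5NC the count (6) ran from 2 to 17 when 1 library was left out, and was 2 with only the libraries of the groups compared and 2 when the 3 control libraries were pooled. The difference of effects (3) ran from 0 to 18, and c3NC minus c5NC (1) from 0 to 10, when 1 library was left out; with only the libraries of the groups compared that control count was 8. A leave-one-out fit assumes that a lone library varies like the others.

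Nothing in the labels says that the replicate numbers pair the samples. Same-numbered deviations correlated at 0.11 (cKDmix and c3NC), 0.28 (cRNA28250 and c3NC) and −0.15 (cKDmix and cRNA28250). These values cannot settle whether same-numbered libraries belong together. With the replicate block 24, 5, 2 and 1 members were called in these 4 comparisons. The block lost HSP90AA1 (limma adjusted p = 0.0582) and DNAJC27 and gained HSPB6 in knockdown, lost HSP90AB1 (0.0829) in overexpression, lost DNAJB5 (0.0553) and HSPA4L (0.0595) and gained HSPB6 in the difference, and had HSPB6 in place of DNAJB5 between the controls. Of the values of named members under the alternatives, 672 kept direction and side of the threshold, 111 lost and 9 gained a call, and 29 that were not called changed sign. Depth is unknown, so no counting error can be given.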
